A study of Mus musculus with 4 samples.

Results

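Polyamine metabolism was followed through 10 genes: the ornithine decarboxylase antizymes Oaz1, Oaz2 and Oaz3, ornithine decarboxylase itself (Odc1), the antizyme inhibitor Azin1, the synthetic enzymes Amd1, Srm and Sms, and the catabolic enzymes Sat1 and Smox. They were chosen by name from a table of 22552 gene symbols, and all 10 were found. Oaz2 stands in the table under Oaz2-ps, which RefSeq lists as a synonym of Oaz2. By RefSeq on GRCm38.p6, Oaz1 and Amd1 lie on chromosome 10, Oaz2 on 9, Oaz3 on 3, Odc1 on 12, Azin1 on 15, Srm on 4, Smox on 2, and Sms and Sat1 on X. Transcript levels were measured in haploid cells of 23-day-old male mice, with 2 libraries from wild-type testes and 2 from Sox30 knockout testes. The cells were sorted by fluorescence after Hoechst staining of DNA and are labelled as round spermatids. Sox30 encodes a transcription factor of the SOX family, and the deleted stretch of the gene is not stated in the labels. As labelled, the strain of the wild-type libraries was DBA/C57/ICR (library 1) and DBA/C59/ICR (library 2), and that of the knockout libraries DBA/C58/ICR (library 1) and DBA/C60/ICR (library 2). Nothing in the labels tells whether each library had its own animals. The p-values therefore speak only of the variation among the 4 libraries, part of which may be technical.

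Polyamines (putrescine, spermidine and spermine) are small cations that bind nucleic acids. ODC makes putrescine from ornithine, and antizymes bind ODC and restrain polyamine uptake, while antizyme inhibitors bind the antizymes in turn. Antizyme is itself made only when the ribosome shifts reading frame on its mRNA, a shift that polyamines promote, so the loop feeds back on polyamine level. Oaz1 and Oaz2 are expressed widely, whereas Oaz3 is known as the antizyme of haploid male germ cells.

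The 3 antizyme genes share this frameshift site, which is printed here because it is the feature that makes them one family and because Oaz3 is the member whose transcript changed. Each window holds 91 bases of coding exon, 5′ to 3′, from the GENCODE M21 transcripts on GRCm38. The capitals mark the last codon read in the first frame and the TGA stop codon whose first base is skipped. Oaz1 lies at chr10:80828250-80828340 on the plus strand, Oaz2 at chr9:65686227-65686317 on the plus strand and Oaz3 at chr3:94435989-94436079 on the minus strand.
Oaz1: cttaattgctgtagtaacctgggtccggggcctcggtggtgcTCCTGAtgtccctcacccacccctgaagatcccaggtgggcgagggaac
Oaz2: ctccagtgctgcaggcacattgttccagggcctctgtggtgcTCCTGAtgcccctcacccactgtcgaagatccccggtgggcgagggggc
Oaz3: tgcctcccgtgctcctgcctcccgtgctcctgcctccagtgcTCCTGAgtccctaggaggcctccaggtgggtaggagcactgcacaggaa
The capitalised bases were identical in all 3. Position by position, without gaps, Oaz1 and Oaz2 were identical at 72 of 91 bases, Oaz1 and Oaz3 at 27 and Oaz2 and Oaz3 at 30. Within the 18 bases centred on the start of the stop codon, Oaz1 matched Oaz2 at 17 bases and Oaz3 at 12.

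Levels are given as FPKM, fragments scaled to transcript length and to library size, so that genes can be set beside each other. Read counts were not part of these tables. Steps between the lowest values put the depth of the second wild-type library at 1.39 times that of the first. By the same steps the knockout libraries were at 1.24 and 1.17 times. Even so, symbols listed at 0 numbered 9329 and 11112 of 22552 in the knockout libraries, against 6414 and 5915 in the wild-type libraries. Whether a 0 in the knockout is particular to a gene was not tested. Sox30 was at 11.4 and 16.2 FPKM in wild-type cells and at 1.46 and 3.16 FPKM in knockout cells, a log2 difference of -2.19 (SE 0.43, limma adjusted p = 0.0219). The label was checked against 8 round spermatid markers, which all were above 0 in every library. They summed to 2383 and 2007 FPKM in wild-type cells and 466 and 334 FPKM in knockout cells. Each marker was lower in both knockout libraries, but by unlike amounts. Tssk2 was at 137 and 136 FPKM in wild-type cells but at 0.851 and 0.429 FPKM in knockout cells. Sun5 was at 125 and 106 FPKM against 1.41 and 0.0601 FPKM. Crem (166 and 114 FPKM) and Acr (162 and 108 FPKM) were the highest of the 8 in knockout cells. Markers of other cells differed between genotypes for some cell types only. Sertoli cell markers summed to 1.64 and 6.54 FPKM in wild-type cells and 0.585 and 3.56 FPKM in knockout cells, with overlap. Macrophage markers overlapped too, at 0.322 and 1.21 FPKM against 1.54 and 0.283 FPKM. The 3 peritubular markers, of which 2 were lower in both knockout libraries, summed to 7.62 and 6.58 FPKM against 1.42 and 0 FPKM. Of the 6 Leydig cell markers 5 were lower in both knockout libraries, and they summed to 60.2 and 36.8 FPKM in wild-type cells and to 0.0674 FPKM in knockout library 1, with a sum that rounds to 0 in knockout library 2. Of the 8 spermatogonial markers 7 were lower in both, and they summed to 33.5 and 37.1 FPKM against 7.11 and 5.69 FPKM, with Kit, Stra8, Dmrt1, Zbtb16 and Sohlh1 listed at 0 in both knockout libraries. The 3 red blood cell markers, all lower in both, summed to 242 and 132 FPKM against 7.45 FPKM and a value that rounds to 0. Of the 7 spermatocyte markers 5 were lower in both knockout libraries (Sycp1, Sycp3, Hormad1, Spo11 and Dmc1) and 1 was higher in both (Ccna1, at 163 and 192 FPKM against 369 and 210 FPKM). Their sum was 468 and 446 FPKM against 558 and 430 FPKM.

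Differences between genotypes were tested with limma on log2(FPKM + 1) over the 9124 genes with a mean of at least 1 FPKM, and p-values were adjusted over all of them. Of the 10 polyamine genes 8 entered the test, and Sms and Smox were below the minimum. Oaz3 fell, 0 rose and 7 did not pass. Among all genes tested 13.4% fell and 1.95% rose. At an unadjusted p under 0.05 the polyamine genes numbered 2, both lower (Oaz3 and Azin1), and 0 higher in the limma fit, beside 23% lower and 8.3% higher among all genes tested. The median log2 difference of the 8 was -0.05, beside -0.23 for all genes tested. The plot of levels by library shows 1 gene, Oaz3, leaving its wild-type range by a wide margin in both knockout libraries. Srm in knockout library 1 and Amd1 in knockout library 2 also lay well outside theirs. Oaz1, Oaz2 and Odc1 stayed among the abundant transcripts.

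**Figure D1:**
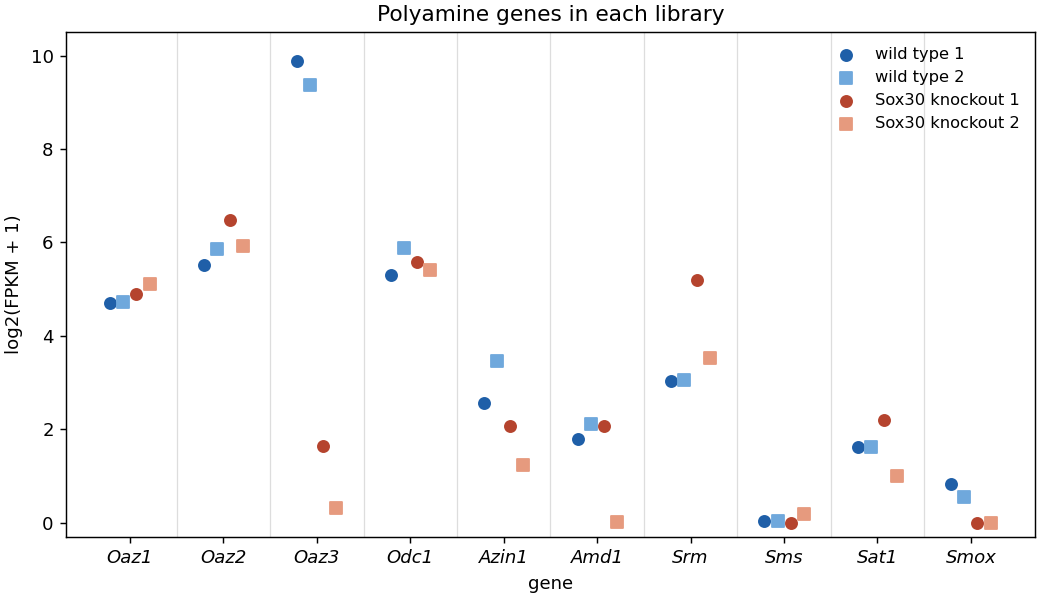
Level of each polyamine gene as log2(FPKM + 1) in the 4 libraries (blue: wild type, red: Sox30 knockout, circles: library 1, squares: library 2). Oaz3 sits above 9 in both wild-type libraries and below 2 in both knockout libraries, whereas the points of Odc1 from the 2 genotypes interleave.

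Oaz3 was the most abundant of the 10 genes in the wild type, at 941 FPKM in library 1 and 661 FPKM in library 2, where it ranked 95th and 127th of 22552 symbols. In the knockout it was at 2.14 and 0.246 FPKM and ranked 6665th and 9464th. Both knockout values lay far below both wild-type values. The means were 801 ± 197 FPKM (SD, n = 2) and 1.19 ± 1.34 FPKM (SD, n = 2), a ratio of 673. On the log2(FPKM + 1) scale the difference was -8.64 (SE 0.50, 95% confidence interval -9.88 to -7.40, limma adjusted p = 4.8e-04), the fifth deepest fall of the 9124 genes tested. The fall was of similar size when either wild-type library was left out, at -8.39 without the first (limma adjusted p = 0.110) and -8.90 without the second (limma adjusted p = 0.108), but in both fits, where the lone wild-type library is assumed to vary like the knockout pair, the call ended. Over all genes 386 fell in the first of these limma fits and 0 in the second (1517 and 1412 had an unadjusted p under 0.05), so the loss in the second is not particular to Oaz3. In a bulk sample, fewer cells that carry a transcript and less of it in each cell cannot be told apart.

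Transcripts best known from later spermatids moved with Oaz3. All 5 of the elongating spermatid markers (Prm1, Prm2, Tnp1, Tnp2 and Spem1) were lower in both knockout libraries, and their sum was 10485 and 6005 FPKM in wild-type cells against 37.2 and 2.56 FPKM in knockout cells. Spem1 was listed at 0 in both knockout libraries and Tnp1 in the second. Their part in the Oaz3 difference was not tested. Oaz3 overlaps Tdrkh and Mrpl9 on the opposite strand in GENCODE M21, and the sources used here do not state whether strand was used in counting. Tdrkh, a tudor-domain gene of the piRNA pathway, was at 7.55 and 9.99 FPKM in wild-type cells and 4.78 and 7.33 FPKM in knockout cells. Mrpl9, a mitochondrial ribosomal protein gene, was at 4.03 and 5.22 FPKM against 4.97 and 5.98 FPKM. Neither neighbour reached 10 FPKM in any library, and neither passed the test (limma adjusted p = 0.432 and 0.729).

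The widely expressed antizymes did not follow Oaz3. Oaz1 was at 25.0 and 25.5 FPKM in wild-type cells and at 29.0 and 33.5 FPKM in knockout cells. The knockout values were both above the wild-type values, by little when not rescaled. The log2 difference of 0.29 did not pass (95% confidence interval -0.44 to 1.03, limma adjusted p = 0.538). It was 0.13 after a correction for GC content, 0.51 under median-ratio scaling and 0.64 under quantile normalization, without passing. Oaz2 was at 44.6 and 56.9 FPKM in wild-type cells and at 88.2 and 59.8 FPKM in knockout cells. Here too the genotypes did not overlap, although wild-type library 2 and knockout library 2 were nearly level. The log2 difference of 0.52 did not pass (95% confidence interval -0.30 to 1.34, limma adjusted p = 0.338). It was 0.63, 0.74 and 0.76 in the same settings, again without passing. Without knockout library 1 it was 0.24, and without knockout library 2 it was 0.80. Of all genes tested, 22.2% had both knockout values above both wild-type values. Oaz2 exceeded Oaz1 in every library, by a ratio between 1.79 and 3.04.

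The make-up of the antizyme pool differed by genotype. Of the summed antizyme FPKM, Oaz3 made up 93.1% and 88.9% in wild-type cells but 1.79% and 0.263% in knockout cells. The sum itself was 1010 and 744 FPKM in wild-type cells and 119 and 93.5 FPKM in knockout cells. Oaz1 and Oaz2 together amounted to 69.6 and 82.4 FPKM against 117 and 93.3 FPKM. In each of these comparisons the genotypes did not overlap. The exact two-sided permutation test of 2 against 2 libraries gave p = 0.333 for each, the smallest that it can give. FPKM over all symbols summed to 567627 and 500707 in the wild-type libraries and to 597708 and 674234 in the knockout libraries. Whether Oaz1, Oaz2 and their sum stay apart relative to these totals was not tested.

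**Figure D2:**
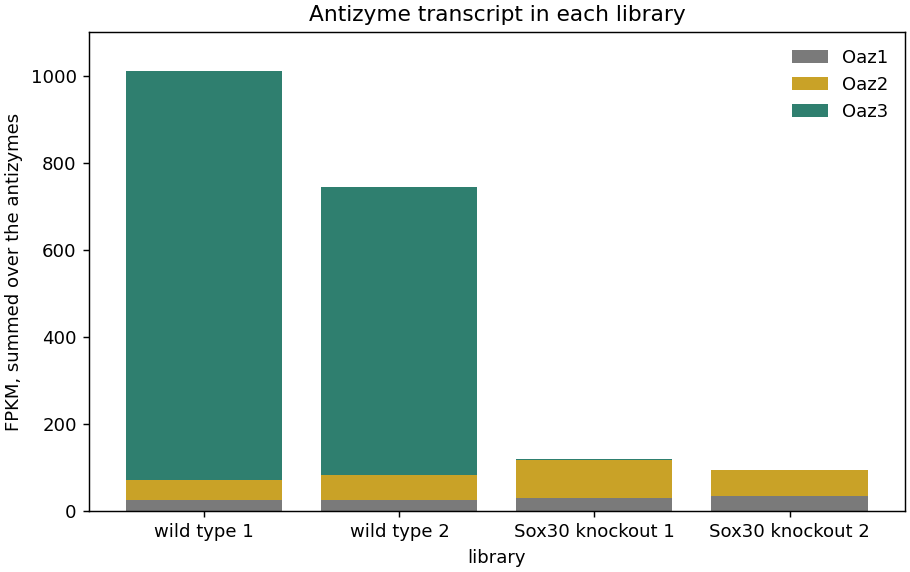
Summed FPKM of the antizyme genes in each library, split into Oaz1 (grey), Oaz2 (yellow) and Oaz3 (green). Oaz3 fills most of the wild-type bars and is hardly visible in the knockout bars, whose height of 119 and 93.5 FPKM comes almost wholly from Oaz1 and Oaz2.

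Odc1, which encodes the enzyme that antizymes inhibit, was at 38.7 and 58.1 FPKM in wild-type cells and at 47.1 and 41.8 FPKM in knockout cells. Both knockout values lay inside the wild-type range. The log2 difference was -0.10 (95% confidence interval -0.91 to 0.72, limma adjusted p = 0.872), an interval that leaves room for a change of either sign, and the sign turned under median-ratio scaling (0.13) and under quantile normalization (0.19). Set against Odc1, the summed antizyme FPKM was 26.1 and 12.8 times that of Odc1 in the wild type and 2.53 and 2.24 times in the knockout. For Oaz1 and Oaz2 alone the ratios were 1.80 and 1.42 against 2.49 and 2.23. The first ratio was lower in both knockout libraries and the second was higher (exact two-sided permutation p = 0.333 for each).

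The antizyme inhibitors were at low levels. Azin1 was at 4.89 and 9.99 FPKM in wild-type cells and at 3.18 and 1.36 FPKM in knockout cells. Both knockout values were below both wild-type values, as for 38.6% of all genes tested. The log2 difference of -1.36 did not pass (SE 0.49, 95% confidence interval -2.57 to -0.14, limma adjusted p = 0.129). Without knockout library 1 it was -1.77 (limma adjusted p = 3.8e-04), in a fit whose spread came from the wild-type pair, and with crossed library numbers as a block the unchanged difference also passed (limma adjusted p = 0.0494). It was smaller and did not pass without knockout library 2 (-0.94, limma adjusted p = 0.103), without wild-type library 2 (-0.91, limma adjusted p = 0.568) or after the GC correction (-0.64, limma adjusted p = 0.386). The second inhibitor, Azin2, known for its expression in testis and brain, is listed under its older symbol Adc. It was at 7.47 and 8.68 FPKM in wild-type cells, at 3.02 FPKM in knockout library 1 and listed at 0 in knockout library 2 (limma adjusted p = 0.0916). Azin2 did pass, as lower, in 5 alternatives: a pseudocount of 5, the GC correction, crossed library numbers, and the omission of either knockout library. The sum of both inhibitors was 12.4 and 18.7 FPKM against 6.20 and 1.36 FPKM, again without overlap. The Leydig, spermatogonial and blood cell markers were also lower in the knockout, and their part in these differences was not tested.

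Among Amd1, Srm and Sms, Srm stood highest. Srm, the spermidine synthase that joins an aminopropyl group to putrescine, was at 7.18 and 7.27 FPKM in wild-type cells and at 35.4 and 10.6 FPKM in knockout cells. The wild-type libraries were nearly equal, while the knockout libraries were both higher and far apart from each other. The log2 difference of 1.32 did not pass (SE 0.58, 95% confidence interval -0.10 to 2.74, limma adjusted p = 0.184). It rested on knockout library 1: without that library it was 0.49 (limma adjusted p = 0.345), and without knockout library 2 it was 2.15 (limma adjusted p = 1.9e-06). The Srm difference passed under quantile normalization (1.79, limma adjusted p = 0.0467), a setting that moved the median of all genes from -0.23 to 0.17.

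Amd1, the S-adenosylmethionine decarboxylase that supplies aminopropyl groups, was at 2.45 and 3.35 FPKM in wild-type cells, 3.17 FPKM in knockout library 1 and 0.0111 FPKM in knockout library 2. The last value stood alone. Amd2, a close paralogue of Amd1, showed the opposite: it was at most 0.00282 FPKM in the other libraries and at 3.12 FPKM in knockout library 2. The sum of both was 2.45, 3.35, 3.17 and 3.13 FPKM in the same order, so that the knockout sums lay within the wild-type range (exact two-sided permutation p = 1). Reads of such similar genes can be shared out differently between libraries, so the separate values of Amd1 and Amd2 are uncertain, as is the Amd1 difference of -0.92 (95% confidence interval -2.61 to 0.77, limma adjusted p = 0.407). Sms, the X-linked spermine synthase, was near the bottom of the range, at 0.0202 and 0.0290 FPKM in wild-type cells and at 0 and 0.138 FPKM in knockout cells. Sms was below the minimum of 1 FPKM, and with no filter on low values it did not pass. Spermidine synthase was thus at 7.18 FPKM or more in every library, while spermine synthase was at most 0.138 FPKM.

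Catabolic enzymes were low as well. Sat1, the X-linked spermidine/spermine acetyltransferase that starts polyamine breakdown and export, was at 3.61 and 1.01 FPKM in knockout cells, beside 2.06 FPKM in each wild-type library. The knockout libraries lay on either side of the wild type, and the log2 difference of -0.01 had a 95% confidence interval of -1.19 to 1.17 (limma adjusted p = 0.993). Its sign changed under median-ratio scaling, quantile normalization and a correction for GC content. Smox, the spermine oxidase, was at 0.767 and 0.458 FPKM in wild-type cells and listed at 0 in both knockout libraries. Its mean was below 1 FPKM, and with no filter on low values it did not pass.

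**Figure D3:**
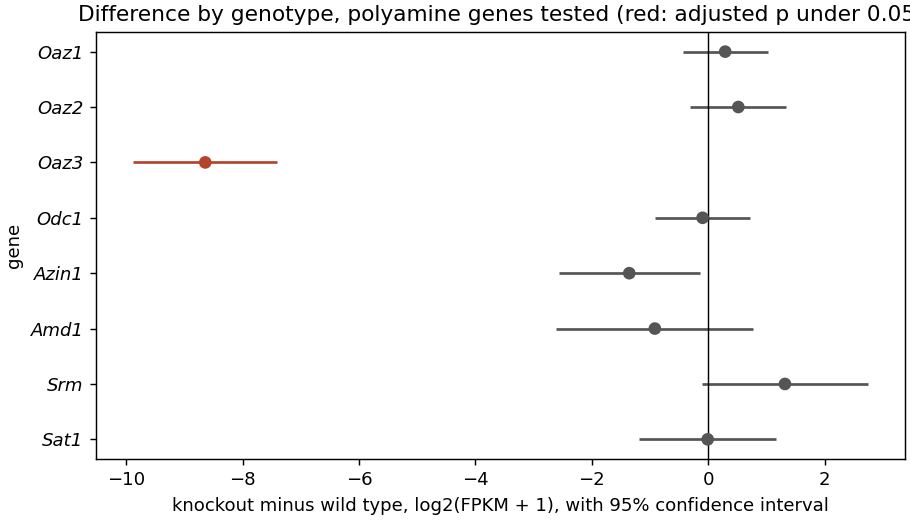
Difference between knockout and wild type on the log2(FPKM + 1) scale for the 8 polyamine genes tested, with 95% confidence intervals from the limma fit. The interval of Oaz3, around -8.64, lies far from 0, that of Azin1 ends at -0.14, and those of Odc1 and Sat1 are centred near 0.

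The contrast between Oaz3 and the other genes was taken within each library. Oaz3 minus Oaz1 on the log2(FPKM + 1) scale was 5.18 and 4.64 in the wild type and -3.26 and -4.79 in the knockout. Oaz3 minus Oaz2 was 4.37 and 3.52 against -4.83 and -5.61, and Oaz3 minus Odc1 was 4.57 and 3.49 against -3.94 and -5.10. Thus Oaz3 went from well above each of these genes to well below it in both knockout libraries. The change of the difference was -8.94 for Oaz1, -9.16 for Oaz2, -8.55 for Odc1 and -9.96 for Srm. For the low genes it was -7.29 for Azin1, -7.73 for Amd1, -8.63 for Sat1, -8.70 for Sms and -7.96 for Smox. In all 9 pairs the genotypes did not overlap. Each pair holds the same Oaz3 values, so this follows from the fall of Oaz3 and the 9 pairs are not separate results. Each exact two-sided permutation test gave p = 0.333 (0.333 after Benjamini-Hochberg adjustment over the 9 pairs), the smallest value that 2 against 2 libraries can give, so no pair could pass 0.05.

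**Figure D4:**
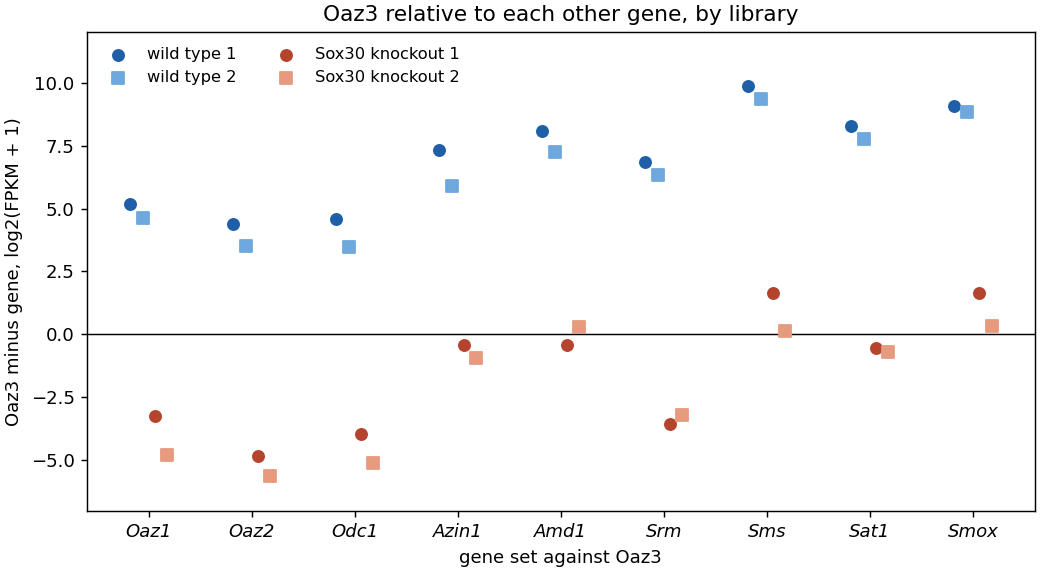
Oaz3 minus each other polyamine gene, as a difference of log2(FPKM + 1) within a library (blue: wild type, red: Sox30 knockout, circles: library 1, squares: library 2). The wild-type points lie above 3 for every gene, and the knockout points of Oaz1, Oaz2, Odc1 and Srm lie below -3.

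Beyond the 10 genes, 31 further genes of polyamine supply, breakdown, transport and use were followed, of which 17 entered the test. Of these, 2 fell, 1 rose and 14 did not pass (13.4% and 1.95% of all genes tested), with a median log2 difference of -0.56 against -0.23 for all genes. At an unadjusted p under 0.05, 6 were lower and 1 was higher (23% and 8.3% of all genes tested). Arg2, the mitochondrial arginase that makes ornithine, was at 12.2 and 8.67 FPKM in wild-type cells and listed at 0 in both knockout libraries (limma adjusted p = 0.00204). The other arginase, Arg1, was listed at 0 in 3 libraries and at 0.260 FPKM in wild-type library 2. Satl1, an X-linked gene resembling Sat1, was at 3.65 and 3.32 FPKM in wild-type cells and likewise listed at 0 in both knockout libraries (limma adjusted p = 0.00678). Arg2 and Satl1 reached the minimum mean of 1 FPKM only through the wild-type libraries. Their knockout values show no spread at 0, so these p-values may understate the uncertainty. Zeros were more frequent in the knockout over all symbols, and whether those of Arg2 and Satl1 are particular to them was not tested. The log2 difference was -3.50 for Arg2 and -2.16 for Satl1, and -3.72 and -2.22 without wild-type library 2, a fit in which 0 of the 9124 genes passed (1412 had an unadjusted limma p under 0.05). Satl1 did not pass with no filter on low values (limma adjusted p = 0.0810). Oat, Mat2a and Mat2b, which handle ornithine or make S-adenosylmethionine, were each lower in both knockout libraries without passing (limma adjusted p = 0.158, 0.146 and 0.0988). Of the 17 genes 8 were lower in both knockout libraries and 2 were higher in both, beside 38.6% and 22.2% of all genes tested.

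Gametogenetin (Ggn) and Ppp1r16a, a regulatory subunit of protein phosphatase 1, have been reported as binding partners of antizyme 3. Ggn rose, from 34.4 and 49.6 FPKM in wild-type cells to 94.9 and 170 FPKM in knockout cells, a log2 difference of 1.60 (SE 0.39, limma adjusted p = 0.0474). Without the first or the second wild-type library the difference was 1.34 or 1.86, in fits where 0 of the 9124 genes rose. The call was close to the threshold and ended with a pseudocount of 0.1 (limma adjusted p = 0.0715), with no filter on low values (limma adjusted p = 0.207), with no mean-variance trend (limma adjusted p = 0.0598) and after the GC correction (1.03, limma adjusted p = 0.126). Ppp1r16a was at 3.22 and 10.9 FPKM against 18.3 and 6.03 FPKM and did not pass (limma adjusted p = 0.521).

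The genes that use spermidine to make hypusine, the modified residue of translation factor eIF5A, ranged widely in level. Eif5a was at 412 and 438 FPKM in wild-type cells and 377 and 333 FPKM in knockout cells, a log2 difference of -0.26 (95% confidence interval -0.90 to 0.38, limma adjusted p = 0.530). Many processed copies of Eif5a exist, so its value may hold their reads. Dohh, the hydroxylase that completes hypusine, was at 13.2 and 18.7 FPKM against 36.7 and 20.9 FPKM (adjusted p = 0.242, limma), and Dhps, which starts it, was at 10.4 and 9.56 FPKM against 13.9 and 5.22 FPKM (adjusted p = 0.829, limma). Apip, of the pathway that recycles methionine from the by-product of polyamine synthesis, was at 55.0 and 45.4 FPKM against 72.2 and 54.2 FPKM (adjusted p = 0.525, limma). Eif5a2, a paralogue of Eif5a, was far lower, at 1.95 and 1.73 FPKM in wild-type cells and 0.982 and 0.795 FPKM in knockout cells (limma adjusted p = 0.257). None of the 4 hypusine genes tested passed, beside 13.4% lower and 1.95% higher among all genes tested. At an unadjusted limma p under 0.05 they numbered 0, beside 23% lower and 8.3% higher. A set of 4 genes is too small to be told apart from these shares.

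**Figure D5:**
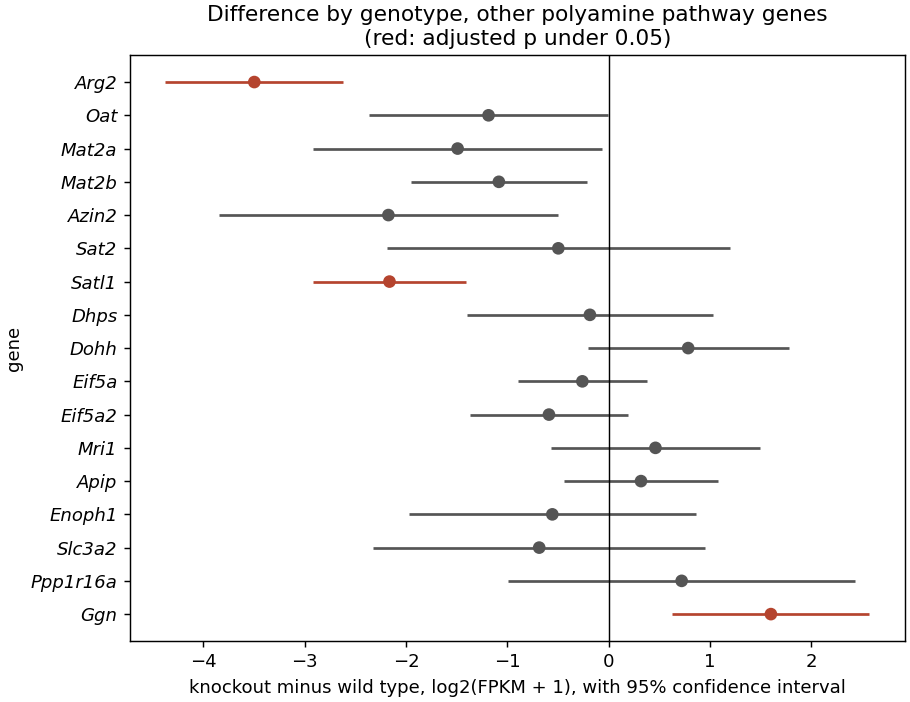
Difference between knockout and wild type on the log2(FPKM + 1) scale for the 17 further polyamine genes tested, with 95% confidence intervals from the limma fit. Arg2 and Satl1 (lower) and Ggn (higher) are drawn in red as past the threshold, and the size for Arg2 and Satl1 is set by the pseudocount because both are listed at 0 in the knockout.

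The genes most like Oaz3 were found by the Euclidean distance between profiles of log2(FPKM + 1) over the 4 libraries, among the 9124 genes tested and passing over 1 gene with a clone-like symbol. The nearest was Hils1, a spermatid linker histone, at a distance of 0.737, with 752 and 496 FPKM in wild-type cells and 3.40 and 0.402 FPKM in knockout cells. Next came Tnp1 (1.29), Prm3 (1.30), Rnf151 (1.31) and Prm2 (1.37). Tnp1 and Prm2 encode a transition protein and a protamine, and Rnf151 a RING finger protein. The profile of Odc1 was nearest to those of Abcf2 (0.177), Optn (0.318) and Thoc5 (0.359), none of which passed the test. Distances describe these 4 libraries only.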

How the data were processed

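RNA from sorted haploid cells was made into libraries with NEBNext Ultra RNA reagents and sequenced, as the labels' protocols state. The authors deposited FPKM for each library. TopHat2 2.0.6, Cufflinks 2.0.2, Cuffdiff and build mm9 are named in the submitters' processing notes. Their roles, the annotation and any use of strand are not stated there or in the labels. The 4 tables were joined by symbol, since their row order differs, and 259 symbols listed more than once were summed.

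limma 3.58.1 (R 4.3.3) was fitted with genotype alone to log2(FPKM + 1) for 9124 genes with a mean of at least 1 FPKM, with a mean-variance trend and two-sided Benjamini-Hochberg adjustment at 0.05. Differences on this scale understate the change of low genes. No rescaling was applied. Absolute depth is unknown, and 2 libraries per genotype limit precision. The fit was tested on simulated data, but the outcome is not given here and no call above rests on it. Low values fell on depth steps (tolerance 0.01 on the log2 scale) for 17.7% of low genes in the second wild-type library, and for 11.8% and 11.4% in the knockout libraries.

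The 10 genes, the further lists and the tests were chosen with earlier results of these data known. The genes named were Sox30, the 10 genes, the further genes that passed or had a mean of at least 20 FPKM, and the nearest profiles (5 for Oaz3, 3 for Odc1). Others, including Oat, Mat2a, Mat2b, Azin2, Dhps, Amd2, Arg1, Ppp1r16a, Tdrkh and Mrpl9, were named after their values were seen. The overlapping genes were taken from GENCODE M21 and the chromosome of each gene from RefSeq on GRCm38.p6, a build that differs from the authors' mm9.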

Additional observations from a re-analysis of the deposited data

How the results depend on the processing

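With 2 libraries per genotype, the Oaz3 difference kept its sign in all 16 alternatives, between -9.31 and -7.98 when 1 library was left out and between -9.81 (pseudocount 0.1) and -7.02 (pseudocount 5) otherwise, with the limma adjusted p between 9.3e-07 and 0.0418 in the latter. Without wild-type library 1 (-8.39) or 2 (-8.90) it did not pass. With all 4 libraries kept, the polyamine genes that fell numbered 1 to 2, and those that rose 0 to 1. Fits without 1 library are not counted here, since 1 genotype then held a single library. Srm was the 1 gene that rose after quantile normalization. Of the further genes, 1 fell with a mean of at least 5 FPKM, and 3 fell with a pseudocount of 5 and after the GC correction. Over all genes 787 of 5456 fell in the first of these settings, and 1290 and 1182 of 9124 in the others. The number that rose was 0 with a pseudocount of 0.1, with no filter on low values, with no mean-variance trend and after the GC correction. Signs changed for Odc1 after median-ratio scaling (0.13), quantile normalization (0.19) and without wild-type library 2 (0.19), for Amd1 without knockout library 2 (0.11) and when summed with Amd2 (0.10), and for Sat1 with a pseudocount of 5 (0.027), after median-ratio scaling (0.12), quantile normalization (0.56), the GC correction (0.53) and without knockout library 2 (0.59), and the cause was not tested. With 1 library left out in turn, the difference ranged from -0.38 to 0.19 for Odc1, from -1.94 to 0.11 for Amd1 and from -0.61 to 0.59 for Sat1. Quantile normalization gave 1012 falls and 608 rises over all genes, against 1221 and 178. The share of Oaz3 among antizymes kept its sign in all 8 alternatives, between -92.1 and -87.8 percentage points. The library number as a replicate block changed no call of the 10 genes (Oaz3 -8.64, limma adjusted p = 7.1e-05, with 1 fall and 0 rises) and left 2 falls and 1 rise among the further genes. Across genes, the deviations of libraries with the same number correlated at -0.20, and with crossed numbers 2 polyamine genes (Azin1 and Oaz3) and 4 further genes fell. The GC correction, the crossed numbers and the sum of Amd1 and Amd2 were chosen after seeing the data.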
